A study of Homo sapiens with 2 samples.

Results

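The DNA replication genes are a list of 40 genes whose products license replication origins, unwind the DNA, copy it and supply its building blocks. They were taken by gene symbol from the 36601 features of the count tables, and all 40 were found, each with UMIs in both libraries. They were measured in MDA-MB-231 cells, a cell line of mesenchymal appearance that is widely used as a model of triple-negative breast cancer. D0 were parental cells in medium with 100 µM methionine, and D21 were revertant cells after 21 days in medium without methionine that held 100 µM homocysteine and 1.5 µM vitamin B12. The sources used here state no vitamin B12 concentration for the D0 sample. Each group was 1 culture and 1 single-cell library, and the medium of long-term cultures was replaced to take away dead cells, so D21 stands for the cells that remained. The comparison asks how gene expression programmes differ in cells that came to grow without methionine.

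Before a cell can copy its genome, the origin recognition complex, CDC6 and CDT1 load the ring-shaped MCM helicase onto origins in G1 phase, and geminin blocks a further round of loading once S phase has begun. CDC45 and the GINS complex then turn MCM into the active helicase, primase and the replicative polymerases synthesise the new strands, and the PCNA clamp holds the polymerases on the template. Many of these genes are transcribed under the control of E2F factors, so that their messages build up around the G1/S boundary, and their summed level is widely used to place single cells in S phase.

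The libraries were made with a 10x Genomics 3' kit, in which each transcript molecule carries a cell barcode and a unique molecular identifier (UMI). There were 7492 D0 cells with 183098116 UMIs and 12487 D21 cells with 182839048 UMIs, so the median cell was deeper at D0 (18908 UMIs) than at D21 (12022 UMIs), and 21 barcodes occurred among the cells of both libraries. Levels are counts per 1000000 UMIs (CPM) over all cells of a library, and shares of cells come from cells thinned at random to 1 depth, the UMI minimum of the D21 cells. The line's markers VIM, CD44, KRT18 and KRT8 lay between 312.5 and 4157 CPM, of 5 markers that should be low or absent ESR1, PGR and CDH1 were below 1 CPM and ERBB2 (11.8 and 10.2 CPM) and EPCAM (9.46 and 10.1 CPM) were low but present, and the 11 markers of fibroblasts, leukocytes and endothelium summed to 13.3 CPM in D0 and 9.34 CPM in D21 cells, of which PECAM1 made 8.89 and 6.42 CPM. With 1 library per group no test over samples was possible, and all intervals are 95% intervals for counting error only, which leave out the variation between cultures. A UMI is 1 captured 3' end and does not scale with transcript length, but capture differs between genes, so levels were compared between libraries and not between genes.

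Taken as a sum, the replication genes were at nearly the same level in parental and revertant cells, 2379 CPM in D0 and 2358 CPM in D21 cells, a ratio of 0.991 (0.987 to 0.995). That ratio passed to the other side of 1 under several other ways of processing, with values from 0.974 to 1.018, so no direction can be given for the sum, nor for single genes as close to 1 as that. Of the 40 genes, 36 were less than 25% higher and less than 20% lower at D21, and 25 had a ratio between 0.9 and 1.1. GINS3 lay under the minimum mean of 5 CPM, and among the other 39 genes 1 was at least 25% higher at D21, beside 7.08% of the 10771 genes with that level, and 3 were at least 20% lower, beside 14.6% of those genes. The higher gene was RRM2, and the lower genes were MCM5, FEN1 and GINS4. The median log2 ratio of the 39 genes was -0.06, beside -0.01 over all 10771 genes. Of the 39, 15 were higher at D21, beside 47.5% of all genes. The counting interval lay above 1 for 12 of them, beside 37.9% of all genes, and below 1 for 21, beside 43.1%.

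**Figure D1:**
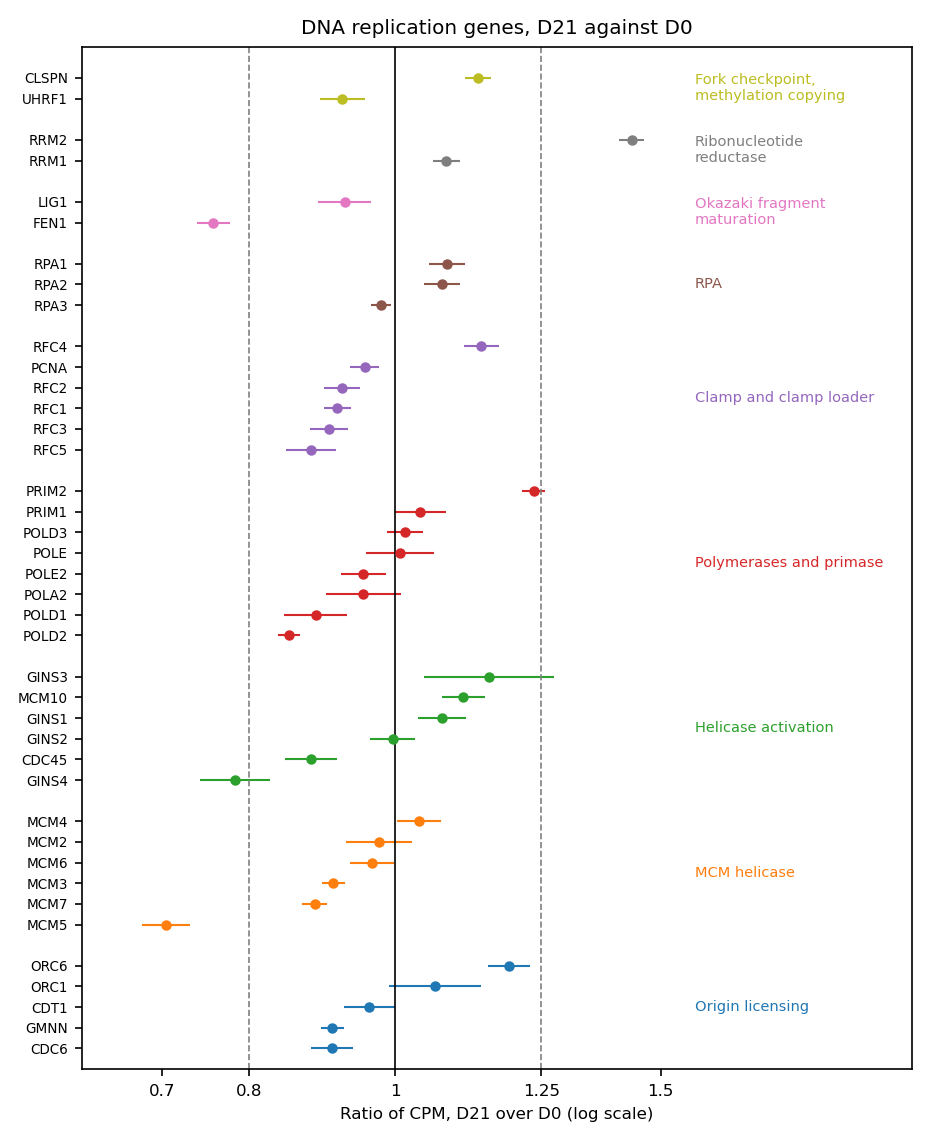
Ratio of CPM in D21 over D0 for each of the 40 replication genes, grouped by role, on a log axis. Points are ratios, bars are 95% counting intervals (1 library per group), and dashed lines mark 20% lower and 25% higher. RRM2 at 1.435 stands furthest to the right and MCM5 at 0.704 furthest to the left, while 36 genes lie between the dashed lines.

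The promoters below differ in their exact matches to 4 spellings of an E2F motif, and they were chosen in part by that number. Other spellings were not counted. RefSeq promoters (250 bases before to 50 after the start, GRCh38.p14) were at hand for 34 of the 40 genes, and 17 of them (50%) held TTTCCCGC, TTTGGCGC, TTTCGCGC or TTTGCCGC on either strand, against 3.33% of 27305 promoters in the table. The promoter of CLSPN (chr1:35769929-35770228, minus strand) is shown because this gene followed the other members most closely from cell to cell, and those of MCM3 (chr6:52284693-52284992, minus strand) and MCM6 (chr2:135876394-135876693, minus strand) because they hold 2 and 4 matches. The promoter of RRM2 (chr2:10122489-10122788, plus strand) belongs to the gene with the highest ratio. Each reads 5′ to 3′ along the gene's own strand, with matches in capitals, and the long capital runs of MCM6 are overlapping matches on the 2 strands.
CLSPN: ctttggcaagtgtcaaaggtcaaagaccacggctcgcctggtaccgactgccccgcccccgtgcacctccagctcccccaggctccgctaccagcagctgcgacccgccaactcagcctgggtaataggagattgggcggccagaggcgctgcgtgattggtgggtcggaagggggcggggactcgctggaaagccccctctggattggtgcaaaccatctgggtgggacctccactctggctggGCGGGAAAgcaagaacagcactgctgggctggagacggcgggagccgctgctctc
MCM3: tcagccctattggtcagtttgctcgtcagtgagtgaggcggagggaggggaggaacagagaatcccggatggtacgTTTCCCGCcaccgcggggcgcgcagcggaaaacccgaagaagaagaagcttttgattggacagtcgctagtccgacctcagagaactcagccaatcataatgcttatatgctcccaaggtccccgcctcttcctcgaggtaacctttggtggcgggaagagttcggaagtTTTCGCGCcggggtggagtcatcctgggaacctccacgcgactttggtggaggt
MCM6: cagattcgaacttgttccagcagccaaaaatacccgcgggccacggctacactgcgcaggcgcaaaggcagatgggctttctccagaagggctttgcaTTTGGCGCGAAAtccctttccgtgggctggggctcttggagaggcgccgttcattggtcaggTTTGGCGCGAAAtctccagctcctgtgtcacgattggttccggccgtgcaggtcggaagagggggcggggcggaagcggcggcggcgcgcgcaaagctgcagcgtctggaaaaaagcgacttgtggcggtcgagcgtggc
RRM2: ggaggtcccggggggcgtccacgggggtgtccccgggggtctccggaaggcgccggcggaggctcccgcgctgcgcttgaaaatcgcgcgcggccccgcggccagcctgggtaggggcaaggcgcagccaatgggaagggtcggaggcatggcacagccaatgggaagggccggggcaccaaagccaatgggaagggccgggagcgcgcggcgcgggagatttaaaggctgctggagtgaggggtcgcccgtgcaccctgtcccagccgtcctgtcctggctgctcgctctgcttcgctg
In CLSPN the match began 5 bases before the start and in MCM3 the matches began 174 and 4 bases before it. In MCM6 they began 152, 148, 90 and 86 bases before the start. RRM2, FEN1, PRIM2 and ORC6 had no match in this window, which says only that these letters are not there, and the window of RRM2 lies inside the wider bounds that GENCODE gives the gene. The 17 genes with a match had a median log2 ratio of -0.07 and the 17 without one a median of 0.06, beside -0.01 over all genes. Of those with a match 4 were higher and 13 lower at D21, and of those without one 9 and 8. Over all genes with at least 5 CPM, 47.5% were higher and 52.5% lower. These counts include GINS3, which lay under that minimum, and genes too close to 1 for a direction, such as GINS2 at 0.996. CCAAT, on either strand, occurred in 61.8% of the members' promoters and in 35.7% of all promoters.

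Origin licensing differed little between parental and revertant cells. The 5 genes summed to 253.7 CPM in D0 and 243.6 CPM in D21 cells, a ratio of 0.960 (0.948 to 0.973). ORC6, the smallest subunit of the origin recognition complex, went the other way, with 37.2 CPM in D0 and 44.2 CPM in D21 cells, a ratio of 1.19 (1.15 to 1.23). ORC1, the subunit that joins the complex in each cell cycle, had 8.37 and 8.89 CPM, and its interval held 1 (0.990 to 1.14). CDC6, the ATPase that loads MCM, had 42.3 and 38.4 CPM, and CDT1, its partner, 28.5 and 27.4 CPM. GMNN, which encodes geminin, the inhibitor of CDT1, had 137.3 and 124.7 CPM. CDC6 and GMNN had the same ratio of 0.908, and CDT1 had 0.961.

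The MCM helicase was lower in sum in revertant cells. Its 6 subunits summed to 396.9 CPM in D0 and 358.1 CPM in D21 cells, a ratio of 0.902 (0.893 to 0.912). The ratio was below 1 for 5 of 6, beside 52.5% of all genes, but MCM2 at 0.975 (0.928 to 1.03) lay too close to 1 for a direction. MCM5 (chr22:35400063-35425430) carried the largest difference, with 37.6 CPM in D0 and 26.5 CPM in D21 cells, a ratio of 0.704 (0.679 to 0.731). Its cells with a UMI were 16.3% of thinned D0 cells and 13.1% of thinned D21 cells. In barcodes with 1 to 100 UMIs, which stand mostly for free RNA, MCM5 was nearly level at 42.5 CPM (D0) and 40.9 CPM (D21), above its level in D21 cells, and the 6 subunits summed to 415.1 and 413.6 CPM there. The part of free RNA in the MCM5 values was not tested. MCM2 had 17.2 and 16.8 CPM, and MCM6 38.4 and 37.0 CPM and a ratio of 0.964. MCM3 went from 144.6 to 131.5 CPM and MCM7 from 121.6 to 107.4 CPM, ratios of 0.909 and 0.884. MCM4 was the exception, with 37.5 and 38.9 CPM and a ratio of 1.04. The proteins of these genes form 1 ring with 1 copy of each, while their messages did not keep 1 proportion between the libraries.

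Genes that turn the loaded helicase on were split. CDC45, MCM10 and the 4 GINS subunits summed to 153.1 CPM in D0 and 152.8 CPM in D21 cells, a ratio of 0.998 (0.982 to 1.02). MCM10, which helps the helicase to start unwinding, had 38.1 and 42.2 CPM, a ratio of 1.11 (1.07 to 1.15). CDC45 had 28.9 and 25.4 CPM, a ratio of 0.879 (0.845 to 0.914). Within GINS, GINS1 was at 30.3 and 32.6 CPM, GINS2 at 35.0 and 34.8 CPM, and GINS3 at 4.05 and 4.68 CPM. GINS4 was at 16.7 and 13.1 CPM, a ratio of 0.783 (0.742 to 0.826), so the subunits of this complex lay on both sides of 1.

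The polymerases and primase summed to 462.7 CPM in D0 and 462.5 CPM in D21 cells. That balance joined PRIM2, the large primase subunit (chr6:57314805-57646849), with 120.7 and 149.1 CPM and a ratio of 1.235 (1.21 to 1.26), to POLD2, an accessory subunit of polymerase delta, with 172.9 and 147.0 CPM and a ratio of 0.850 (0.836 to 0.864). PRIM2 was in 40.4% of thinned D0 cells and 47.0% of thinned D21 cells. PRIM1, the catalytic primase subunit, had 28.5 and 29.6 CPM. It overlaps NACA, an abundant gene at 1526 and 1331 CPM, on the same strand, so its own count is uncertain. POLD1, the catalytic subunit of polymerase delta, had 19.1 and 16.9 CPM, and POLD3, another of its subunits, 56.4 and 57.2 CPM. POLE, the catalytic subunit of polymerase epsilon, had 15.6 and 15.7 CPM, and POLE2, its second subunit, 36.0 and 34.3 CPM. POLA2, the regulatory subunit of polymerase alpha, had 13.5 and 12.8 CPM, and its interval held 1, as did those of POLE and POLD3.

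In the clamp and its loader 5 of 6 genes were lower at D21, beside 52.5% of all genes. PCNA had 84.6 CPM in D0 and 80.7 CPM in D21 cells, a ratio of 0.954 (0.933 to 0.976). The loader subunits RFC1 (101.6 and 93.0 CPM), RFC2 (58.4 and 53.8 CPM), RFC3 (51.7 and 46.7 CPM) and RFC5 (30.1 and 26.5 CPM) had ratios from 0.879 to 0.922. RFC4 lay apart, with 56.8 and 64.8 CPM and a ratio of 1.14 (1.11 to 1.17). The trimer RPA, which coats single-stranded DNA, was close to level, with RPA1 at 53.3 and 57.7 CPM, RPA2 at 56.4 and 60.5 CPM and RPA3 at 173.2 and 169.5 CPM.

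Of the genes that finish Okazaki fragments, FEN1 was lower in revertant cells, while LIG1 was nearly level at matched depth. FEN1, the nuclease that removes RNA primers (chr11:61792637-61797244), had 80.7 CPM in D0 and 61.1 CPM in D21 cells, a ratio of 0.757 (0.739 to 0.776). Cells with 3 or more FEN1 UMIs were 2.68% of thinned D0 cells and 0.929% of thinned D21 cells. FEN1 overlaps FADS2, a fatty acid desaturase gene, on the same strand, and FADS2 itself had 62.6 CPM in D0 and 23.7 CPM in D21 cells. In cells with no FADS2 UMI at full depth the ratio of FEN1 was 0.80 (0.767 to 0.833), from 76.1 and 60.8 CPM. These were 2394 of 7492 D0 cells and 9222 of 12487 D21 cells, so unlike parts of the libraries, and the part of depth in this ratio was not tested. The correlation of FEN1 and FADS2 between cells was near 0 (r = -0.02 at D0 and -0.01 at D21 over all cells of a library). LIG1, the ligase that joins the fragments, had 26.5 and 24.5 CPM, a ratio of 0.925 (0.888 to 0.964). At the thinned depth LIG1 had 0.132 UMIs per D0 cell and 0.131 per D21 cell. It was in 11.6% of thinned D0 cells and 11.9% of thinned D21 cells.

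Ribonucleotide reductase, the enzyme that makes deoxyribonucleotides, was the role with the highest ratio, 203.0 CPM in D0 and 255.4 CPM in D21 cells, or 1.26 (1.24 to 1.28). RRM2, its small subunit (chr2:10120698-10131419), had 101.8 CPM in D0 and 146.0 CPM in D21 cells, a ratio of 1.435 (1.41 to 1.46). RRM1, the large subunit, had 101.3 and 109.5 CPM, a ratio of 1.08 (1.06 to 1.1). RRM2 UMIs were found in 29.9% of thinned D0 cells and 40.1% of thinned D21 cells, and 3 or more of them in 4.0% and 8.47%. No cell type in these cultures should lack the gene, so a background share could not be read directly. In barcodes with 1 to 100 UMIs RRM2 was at 101.4 CPM in the D0 library and 152.8 CPM in the D21 library, while in the cells without any UMI of 20 mitosis genes it was at 4.39 and 6.21 CPM.

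The remaining members act at the fork in other ways. CLSPN, which encodes claspin, the adaptor through which ATR activates CHEK1, had 99.1 CPM in D0 and 112.4 CPM in D21 cells, a ratio of 1.13 (1.11 to 1.16). It was in 30.8% of thinned D0 cells and 37.3% of thinned D21 cells. UHRF1, which brings the maintenance methyltransferase DNMT1 to newly copied DNA, had 37.3 and 34.4 CPM, a ratio of 0.922 (0.891 to 0.954).

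The similar sums hid a narrower spread between cells at D21. At the thinned depth the members gave 12.3 UMIs per cell on average in both libraries, with a median of 10 at D0 and 11 at D21. The Fano factor, the variance divided by the mean, was 5.78 at D0 and 4.87 at D21. Cells at or above the 75th percentile of D0 (18 UMIs) were 25.4% of D0 cells (24.4 to 26.4%) and 25.02% of D21 cells (24.3 to 25.8%), a difference of -0.36 percentage points (-1.61 to 0.88). At the median of D0 (10 UMIs) D21 had more cells above the level, 58.9% against 54.0%, and at the 90th percentile (25 UMIs) it had fewer, 7.61% against 10.3%. A high cell is therefore a range of a score, and 5.50% of D0 cells and 6.83% of D21 cells lay at 18 UMIs or 1 below.

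**Figure D2:**
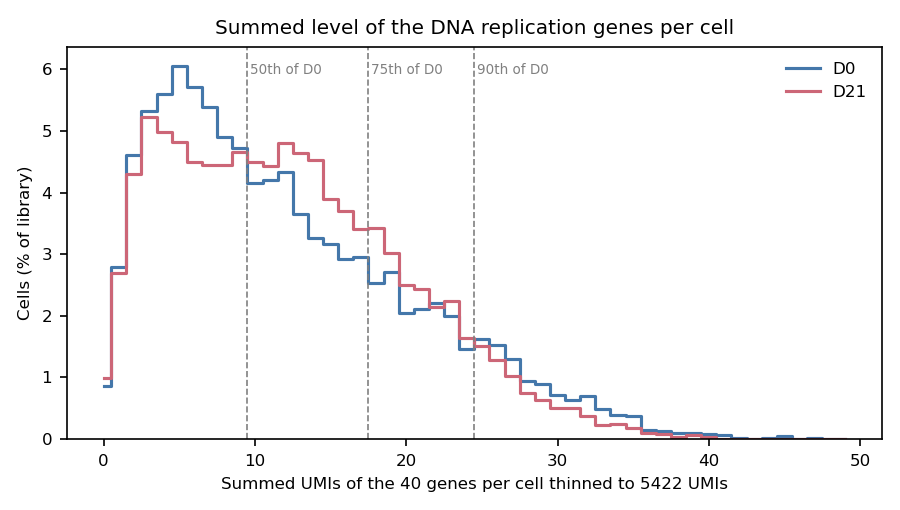
Distribution of the summed UMIs of the 40 replication genes per thinned cell, as a percentage of the cells of D0 (7492) and D21 (12487). Dashed lines mark the 50th, 75th and 90th percentiles of D0. The D21 curve lies above D0 between the first pair of lines and below it beyond the last, where 7.61% of D21 cells and 10.3% of D0 cells lie.

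As a rough guide to the cell cycle, cells were grouped by the thinned UMIs of 20 mitosis genes (TOP2A, CCNB1, CDK1, PLK1 and others), none of which is a member. The groups order cells by these counts and not by time, and which phases each of them held was not tested. The bins held 0, 1 to 2, 3 to 9, 10 to 24 and 25 or more of these UMIs, and in D0 they took 14.4%, 19.0%, 19.7%, 24.2% and 22.7% of cells. In D21 they took 13.4%, 16.9%, 18.3%, 31.8% and 19.7%. Summed members at D0 went from 1112 CPM in the first bin to 1730, 2850 and 2881 CPM, and to 2267 CPM in the last. At D21 the same bins held 963, 1398, 2643, 2902 and 2420 CPM. The replication genes were thus highest in cells with few to moderate mitosis UMIs in both libraries.

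The ratio of D21 over D0 was not the same along these bins. For the sum it was 0.866 (0.848 to 0.884) in cells with no mitosis UMI, 0.808 (0.797 to 0.820) with 1 to 2, 0.927 (0.919 to 0.936) with 3 to 9, 1.01 (1.00 to 1.01) with 10 to 24 and 1.07 (1.06 to 1.08) with 25 or more. In the second bin all 40 genes had a ratio below 1, beside 61% of all genes, and in the last bin 14 did. For several of the 40 the interval in the second bin held 1, so no direction can be given for them. Among these were RRM2 at 0.967 (0.848 to 1.1) and PRIM2 at 0.995 (0.936 to 1.06). From the second to the last bin the ratio was higher for 40 of 40 members, beside 63.7% of all genes. For 30 of the members the intervals of these bins did not overlap. The shares of all genes below 1 in the last bin, and with intervals that did not overlap, were not computed. The members' median log2 ratio went from -0.32 in the second bin to 0.10 in the last, while that of all genes went from -0.06 to 0.00. The mitosis genes that set the bins also differed between libraries (3047 CPM in D0 and 2857 CPM in D21 cells in sum), as did the cells' depth, whose part in this pattern was not tested.

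Members kept different places along the bins. At D0, 22 genes were highest with 3 to 9 mitosis UMIs, among them MCM2 to MCM6, CDC6, CDT1, ORC1, PCNA and UHRF1, and 18 were highest with 10 to 24, among them RRM1, RRM2, CLSPN, FEN1 and RPA1 to RPA3. At D21, 15 were highest in the lower and 24 in the higher of these bins, and RFC3 was highest in the bin with 25 or more. From the bin with 3 to 9 to the bin with 25 or more, MCM6 dropped to 0.367 of its level at D0 and 0.420 at D21, MCM5 to 0.406 and 0.493, GINS2 to 0.437 and 0.549, and MCM3 to 0.458 and 0.553. RRM2 instead went on to 1.62 and 1.84 times its level and RRM1 to 1.34 and 1.41 times. This quotient was higher at D21 for 40 of 40 members, but its share over all genes was not computed. It is made from the same values as the ratios by bin above, so it adds no separate result. For the last bin against the second, 63.7% of all genes had a higher ratio. RRM2 was also the member with the steepest start, 19.8 times higher with 3 to 9 mitosis UMIs than with none at D0 and 17.8 times at D21.

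**Figure D3:**
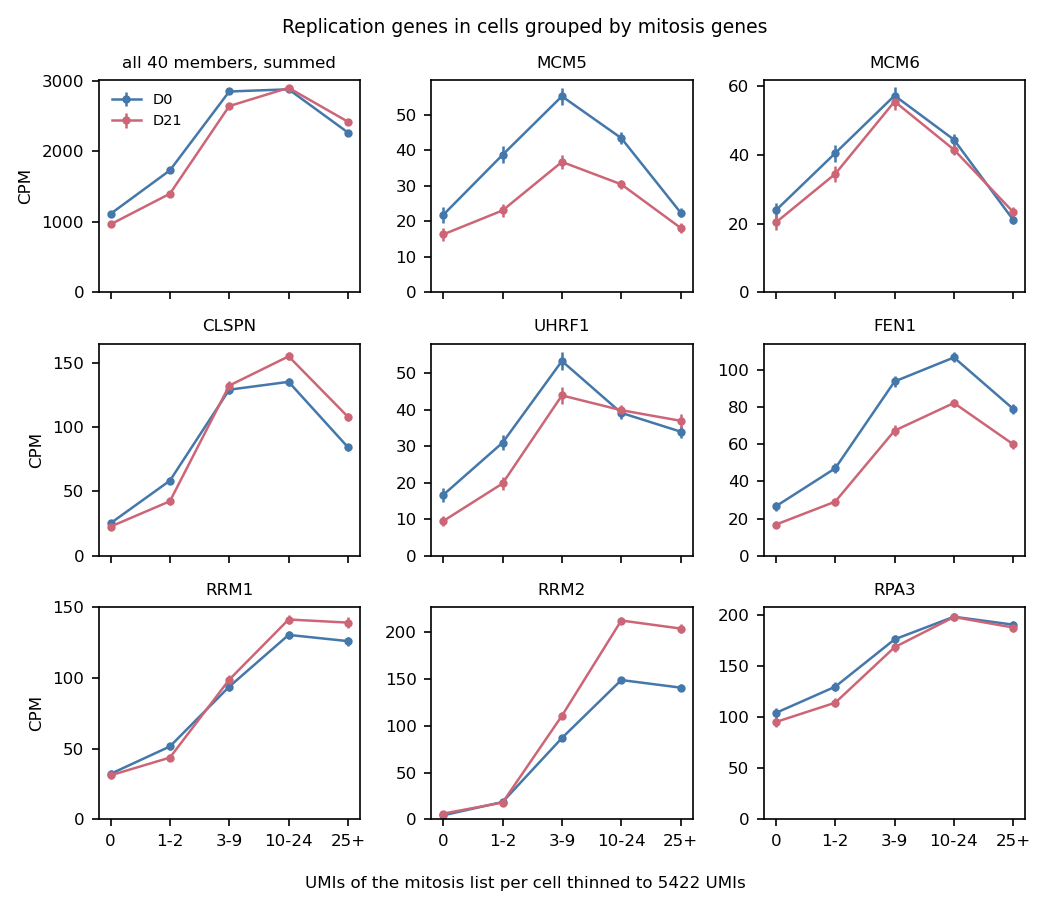
CPM of the 40 replication genes in sum and of 8 of them in cells grouped by thinned UMIs of 20 mitosis genes (0, 1-2, 3-9, 10-24, 25 or more), D0 in blue and D21 in red. Bars are approximate 95% counting intervals, mostly smaller than the points, and every axis of CPM starts at 0. The D21 line of the sum starts below D0 (963 against 1112 CPM) and ends above it (2420 against 2267 CPM), MCM5 and FEN1 lie lower at D21 in each bin, and RRM2 parts from D0 from the third bin on.

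In individual genes the gap between libraries took different forms. MCM5 was lower at D21 in each of the 5 bins, with ratios from 0.595 to 0.808, and so was FEN1, with ratios from 0.619 to 0.771. MCM10 went from 0.702 in the second bin to 1.40 (1.30 to 1.51) in the last, MCM4 from 0.748 to 1.30, and CLSPN from 0.726 to 1.28. UHRF1 went from 0.570 in the first bin to 1.09 in the last. RRM2 was above 1 in 4 of 5 bins, at 1.27 with 3 to 9, 1.43 with 10 to 24 and 1.45 (1.40 to 1.50) with 25 or more mitosis UMIs.

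From cell to cell the members moved together weakly but nearly throughout. The following are Pearson correlations of log2(1 + thinned UMIs) over the cells of a library, which share 1 culture and 1 library, and they are given as a description. The median correlation of a member with the summed others was 0.251 at D0 and 0.226 at D21, against a median of 0.002 and 0.006 for the 10732 other genes with the summed members. The 95th percentile of those other genes was 0.115 and 0.120, which 39 members passed at D0 and 36 at D21. All 780 pairs of members had a correlation above 0 at D0 and 777 at D21, but the median pair stood at only 0.08 and 0.07, and the highest at 0.294 and 0.321. Low counts limit these values, as the median member was seen in 16.6% of thinned D0 cells.

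CLSPN followed the others most closely, at r = 0.470 in D0 and 0.463 in D21. At D0 it was followed by MCM3 at 0.442, FEN1 at 0.404, PCNA at 0.401 and RRM2 at 0.398. At D21 RRM2 stood next to CLSPN at 0.440, and the RRM2 and CLSPN pair was the highest of all pairs at 0.321, while at D0 MCM3 and CLSPN led at 0.294. GINS3 was lowest at 0.09 and 0.08, and the common POLD2 was low as well, at 0.150 and 0.09. The median over the 89 pairs within a role was 0.08 at D0 and 0.06 at D21, and over 691 pairs of different roles 0.08 and 0.07, but the roles differed. At D0 the median pair stood at 0.110 in the MCM helicase, 0.106 in licensing and 0.099 in the clamp and its loader, and at 0.06 in helicase activation, 0.05 in the polymerases and primase and 0.04 in RPA. RRM1 and RRM2 stood at 0.264 at D0 and 0.261 at D21. CDT1 and GMNN, an activator and its inhibitor whose proteins alternate in the cycle, were positively correlated as messages, at 0.134 and 0.113.

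In D21 cells the correlations with mitosis genes were mostly higher than in D0 cells, and those among members mostly lower. The correlation of the summed members with the summed mitosis genes was 0.359 at D0 and 0.522 at D21. The correlation with the mitosis genes was higher at D21 for 39 of 40 members, beside 61.7% of all genes, and POLD2 was the exception. MCM3 went from 0.00 to 0.09, MCM4 from 0.02 to 0.110, CLSPN from 0.152 to 0.261 and RRM2 from 0.374 to 0.464. The correlation with the other members was lower at D21 for 34 of 40, beside 42.8% of all genes, with FEN1 going from 0.404 to 0.324 and RRM2 upward from 0.398 to 0.440. Cells at or above the 75th percentile of D0 in both lists (18 UMIs of members and 23 of mitosis genes) were 4.63% of D0 (4.17 to 5.13%) and 5.34% of D21 (4.95 to 5.75%), and cells high in mitosis genes alone were 20.9% and 17.9%.

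**Figure D4:**
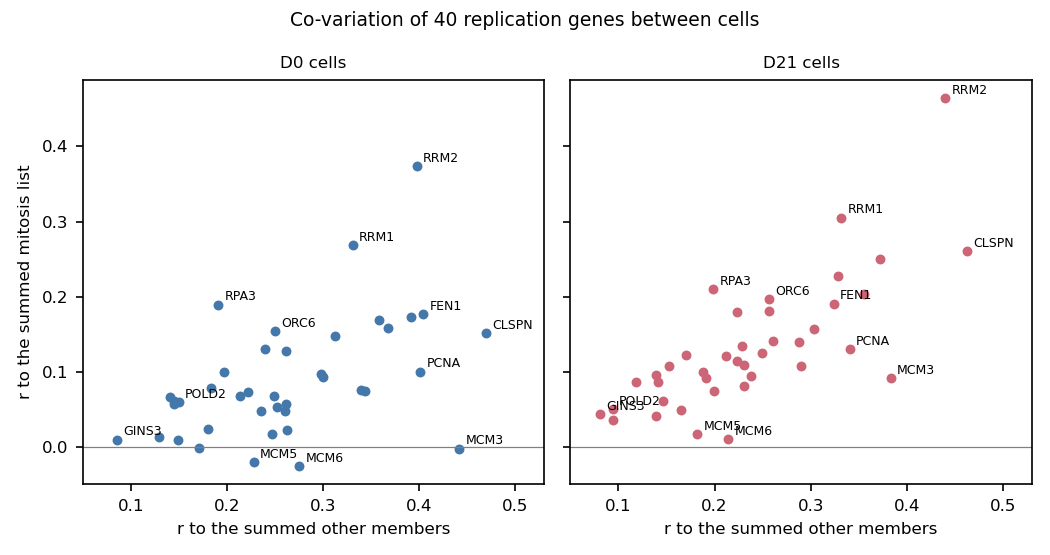
Each point is 1 of 40 replication genes, with its correlation to the summed other members on the x axis and to the summed 20 mitosis genes on the y axis, over D0 cells (left) and D21 cells (right). Points sit higher at D21 for 39 genes. CLSPN lies furthest to the right in both panels (0.470 and 0.463), RRM2 lies on top (0.374 and 0.464), and MCM5 and MCM6 stay near 0 on the y axis.

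Outside the list, the genes that followed the summed members most closely were ATAD2, DEK, TYMS, H2AFZ, MIR924HG, HIST1H4C, PCLAF, CENPU, NASP and DIAPH3, by the mean of both libraries among genes with at least 20 CPM. ATAD2, a chromatin ATPase, stood at r = 0.521 in D0 and 0.525 in D21, above each single member. TYMS, thymidylate synthase, stood at 0.474 and 0.491, and PCLAF, a PCNA binding factor, at 0.426 and 0.482. H2AFZ encodes the histone variant H2A.Z, NASP a histone chaperone, DEK a chromatin protein, CENPU a kinetochore protein and DIAPH3 a formin, and MIR924HG is a microRNA host transcript. HIST1H4C, a gene of histone H4, had nearly the same correlation in both (0.451 and 0.463) although its level was 1236 CPM in D0 and 742.5 CPM in D21 cells. At the other end were NEAT1 (-0.297 and -0.274), a nuclear non-coding RNA, EEF1A1, a translation elongation factor, SQSTM1, an autophagy receptor, TPT1 and PNRC1.

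Other genes of the pathway did not all share the near-level picture. In a list of 20 replication checkpoint and repair genes, 18 were higher in D21 cells, and the median log2 ratio of the list was 0.18, beside 47.5% and -0.01 over all genes. BRCA1, which acts in repair at broken forks, had 43.7 and 60.0 CPM, a ratio of 1.37 (1.33 to 1.41), and BRCA2, which acts in homologous recombination, 34.6 and 41.7 CPM. The recombination gene XRCC2 and the checkpoint kinase CHEK2 had ratios of 1.26 and 1.195. Of 15 other genes of origin recognition and loading, 12 were higher, with a median of 0.15. ORC2 had a ratio of 1.26, and MTBP and TOPBP1, which help to fire origins, 1.27 and 1.24, while the helicase gene RECQL4 was at 0.758. Of the 16 other polymerase and fork subunits with at least 5 CPM, 8 were higher and 8 lower, from POLE4, a small subunit of polymerase epsilon, at 1.52 (94.5 and 143.5 CPM) and TIPIN, of the fork protection complex, at 1.29, to RNASEH2A, of the nuclease RNase H2, at 0.779 and CHTF18, of an alternative clamp loader, at 0.730.

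The counts of the next lists stand beside 47.5% of all genes with at least 5 CPM that were higher at D21. The 20 genes of nucleotide supply were split 10 to 10. Beside the higher RRM2, TK1, thymidine kinase, had 122.4 CPM in D0 and 92.3 CPM in D21 cells, a ratio of 0.754 (0.739 to 0.769), and SHMT1, a folate enzyme, and IMPDH2, of guanine nucleotide synthesis, had ratios of 0.822 and 0.850. In chromatin assembly 8 of 14 were higher, with the histone acetyltransferase HAT1 at 1.16, NASP at 1.14, and the histone chaperones ASF1A at 0.864 and ASF1B at 0.821. Among regulators of the G1/S step, 6 of 16 with at least 5 CPM were higher. E2F1, a transcription factor of replication genes, had 41.7 CPM in D0 and 28.5 CPM in D21 cells, a ratio of 0.682 (0.658 to 0.706), CDK4 and CCND1 had ratios of 0.815 and 0.868, and the phosphatase gene CDC25A 1.16. Of 9 CDK inhibitors and p53 targets 2 were higher, GADD45A at 1.17 and SESN1 at 1.13 (1.05 to 1.2), and CDKN2C and CDKN2D were at 0.689 and 0.738. Of the 20 mitosis genes 8 were higher, and CCNB2, CCNB1, MKI67 and BIRC5 had ratios of 0.723, 0.762, 0.801 and 0.806. These were the largest differences in that list, whose median log2 ratio was -0.04 and whose highest was 0.28.

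The study describes cell clusters whose shares differ between the libraries. The members were therefore also read within states set here by marker genes, which are not the study's clusters. State A was taken as cells with more UMIs of AGR2, AFF3 and CST1 than of CEMIP, SAA1, SAA2, FLG and NNMT, and state B as the reverse, and cells with equal numbers were kept apart as ties. State A held 54.2% of D0 and 33.5% of D21 cells, state B 26.4% and 53.3%, and ties 19.3% and 13.2%. Within state A the summed members were at 2235 and 2265 CPM, a ratio of 1.01 (1.01 to 1.02), and within state B at 2461 and 2398 CPM, a ratio of 0.975 (0.969 to 0.981). With the states set by AGR2 against CEMIP alone, the ratios were 1.006 in state A and 0.990 in state B. The members' median log2 ratio was 0.02 in state A and -0.11 in state B, while that of all genes was -0.03 in both. GINS4 had a ratio of 0.849 (0.782 to 0.921) in state A, 0.926 (0.844 to 1.02) in state B and 0.778 in the ties. At D0 it was at 19.5 CPM in state A and 12.1 CPM in state B, and the part of state shares in its ratio was not tested. In states A and B, FEN1 had ratios of 0.831 and 0.753, MCM5 0.740 and 0.641, and RRM2 1.37 and 1.45. High cells were 23.1% and 23.5% of state A and 26.4% and 26.0% of state B at D0 and D21. The ties stood apart, with the summed members at 2599 CPM in D0 and 2387 CPM in D21, a ratio of 0.918 (0.909 to 0.928), a median log2 ratio of -0.20 beside -0.02 over all genes, and 30.3% and 25.05% of high cells. PCNA, lower at D21 over all cells, had a ratio of 1.08 (1.04 to 1.12) in state A, 0.935 (0.903 to 0.968) in state B and 0.787 in the ties.

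The members' level also went with the number of UMIs in a cell. In 4 equal groups of D0 cells by UMIs, the summed members were at 1689, 2281, 2572 and 2491 CPM, and in those of D21 at 1951, 2266, 2492 and 2428 CPM. High cells were 14.8% of the D0 cells with the fewest UMIs (median 11779) and 32.4% of those in the third group (median 22602). The part of depth in the comparison of the libraries was not tested beyond thinning to 1 depth and raising the minimum number of UMIs.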

How the data were processed

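Both samples were measured by single-cell RNA sequencing. The authors made the deposited UMI counts per gene and barcode with Cell Ranger, version 4 by the header of the count tables. Cell Ranger and the build GRCh38 are also named in the processing notes of the submitters. The deposited counts are not normalized and list empty droplets too, and the sources used here do not state the gene annotation used for counting.

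Cells were barcodes with at least 9009 UMIs in D0 or 5422 in D21, at least 500 genes and at most 20% mitochondrial UMIs, which removed 11 and 38 barcodes. Doublets were kept, since Scrublet in scanpy 1.11.5 marked 0 D0 cells and 1 D21 cell, which means that its threshold did not work. An alternative left out the 6% of cells with the highest score in each library (450 and 749). For each gene, the UMIs of all cells in a library were added up and scaled to CPM. Ratios have exact conditional Poisson intervals and shares exact binomial (Clopper-Pearson) intervals. The smallest member count in a library was 742 UMIs and the median 7000 at D0 and 7416 at D21. Genes entered counts and medians with a mean of at least 5 CPM. Cells were thinned with a fixed seed, and no cell was left out at 5422 UMIs. No test across samples was made.

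Named genes were all 40 members, up to 4 genes with the largest log2 ratio of each other list, the 10 and 5 other genes with the highest and lowest correlation with the members, and markers of the cell line. A gene that this rule takes is not reported here. Other genes (NACA, FADS2) are named because they overlap a member. The members and all lists were chosen with earlier results of these data known, and the mitosis bins, the FADS2 check and the reading of tie cells were chosen after levels had been seen. 1 list gene was matched through an older symbol, H2AZ1 as H2AFZ. Of the members, 5 overlap another gene on their own strand in GENCODE (RFC3, POLD3, PRIM1, PRIM2 and FEN1) and 14 one on the other strand. Promoters are from RefSeq, and MCM4, MCM5, GINS4, RPA2, RPA3 and POLD3 had no entry. The computations were tested on simulated data. Python 3.11.15, numpy 2.4.6, scipy 1.17.1 and pandas 2.3.3 were used.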

Additional observations from a re-analysis of the deposited data

How the results depend on the processing

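The comparison of the sums depends on how cells and totals were chosen. The summed ratio of the members was 0.974 with the UMI minimums multiplied by 2, 1.018 with the D0 minimum in both libraries, 1.001 with a mitochondrial limit of 10%, 1.013 scaled without mitochondrial and ribosomal protein genes, 1.008 with each cell weighted equally and 1.006 after thinning. The median log2 ratio stayed below 0 in all 11 alternatives (-0.11 to -0.02) and was -0.11 with the raised minimums. The number of members at least 25% higher was 2, with PRIM2 as the second, under the last 5 of those settings, and at a fold of 1.5 or 2 it was 0, as was the number lower. With 1 library per group no other tool or unadjusted p was available. RRM2 ranged from 1.345 to 1.537 over 9 alternatives, MCM5 from 0.687 to 0.766, FEN1 from 0.742 to 0.781 and GINS4 from 0.745 to 0.80. The difference in the share of high cells was 4.89 percentage points at the 50th percentile of D0, -2.70 at the 90th, 1.77 after thinning to the D0 minimum, which left out 3552 D21 cells, and 1.40 without RPA3, POLD2 and MCM3. At full depth, where D0 cells are deeper, the median correlation of a member with the others was 0.481 at D0 and 0.355 at D21. At the thinned depth it was 0.251 and 0.226, and the part of depth in the wider gap was not tested. The share of member promoters with the motif was 29.4% in the 150 bases before the start, beside 1.82% of all promoters. No paired analysis was possible because each group had 1 library. Depth limits the rarest members most, and GINS3 was seen in 1.94% of thinned D0 cells.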
